A study of Mus musculus with 6 samples.

Results

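The clustered protocadherin genes lie in 3 neighbouring arrays on mouse chromosome 18, the alpha, beta and gamma clusters, and their CpG methylation is described here in mouse embryonic stem cells (mESCs) sorted by cell cycle phase. All 100-CpG windows that overlapped the interval of a cluster on GRCm38 were taken, which gave 181 of the 359192 windows measured. Of these, 55 belonged to the alpha cluster, 59 to the beta cluster and 67 to the gamma cluster, and together they span from chr18:36919871 to chr18:37849525. The choice used genome position only and no methylation value.

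The cells were E14TG2a, an established mESC line of the 129/Ola strain, used at passages 5-28 and grown with serum and LIF. Both groups derive from this 1 line. Cells were labelled with EdU, fixed, stained for DNA content with propidium iodide and sorted into G1, before DNA replication, and G2/M, after it. Methylation was read by enzymatic methyl-seq (EM-seq), which counts 5-methylcytosine and 5-hydroxymethylcytosine together, in 3 biological replicates of G1 and 3 of G2/M. The values are percentages of methylated CpG calls per window and library, without read counts, so the depth behind a percentage is unknown and no interval for a single window can be given.

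Clustered protocadherins are neuronal cell surface proteins that give single neurons different adhesive identities. In the alpha and gamma clusters each variable first exon has its own promoter and is spliced to constant exons shared by the whole cluster, whereas each beta gene is a single large exon without a constant part. The C-type genes, Pcdhac1 and Pcdhac2 in the alpha cluster and Pcdhgc3, Pcdhgc4 and Pcdhgc5 in the gamma cluster, lie at the 3′ end of their arrays and are used more uniformly than the alternate genes before them. Promoter choice among the alternate genes involves DNA methylation of the promoter and variable exon, CTCF binding and contact with distant enhancers.

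The annotation (GENCODE vM21, GRCm38) places 58 protocadherin genes in the 3 intervals, 14 in the alpha cluster from Pcdha1 to Pcdhac2, 22 in the beta cluster from Pcdhb1 to Pcdhb22, and 22 in the gamma cluster from Pcdhga1 to Pcdhgc5. The gamma genes are 12 of type A, 7 of type B and 3 of C-type. The annotated starts of 56 genes fell inside a deposited window. The starts of Pcdha1 and Pcdhgb7 lay in none. Variable exons within a cluster resemble each other, and reads of low mapping quality had been discarded, so how well near-identical exons were told apart is uncertain. The gamma interval also holds the protein-coding genes Slc25a2, Taf7 and part of Diaph1.

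All 3 clusters were less methylated than the rest of the chromosome, and they differed from each other in the order alpha, beta, gamma. Library values are given in the order of replicates 1, 2 and 3 throughout. The 55 alpha windows averaged 54.2%, 45.7% and 54.7% in G1 against 50.1%, 47.1% and 52.9% in G2/M, or 50.8% ± 3.78 over all libraries (SD, n = 6). The 59 beta windows averaged 43.1%, 40.3% and 47.2% in G1 against 41.7%, 40.6% and 47.4% in G2/M, or 43.4% ± 3.18 (SD, n = 6). The 67 gamma windows averaged 32.3%, 31.7% and 37.7% in G1 against 33.1%, 32.7% and 36.7% in G2/M, or 34.0% ± 2.51 (SD, n = 6). Replicate 3 was the highest and replicate 2 the lowest in both phases of each cluster, and the libraries of the phases overlapped in all 3 clusters. The ranges of the gamma cluster and of the other clusters did not overlap, while those of alpha and beta did, through libraries of different replicates.

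Within each library the order of the clusters was the same. Alpha exceeded beta by 7.43 percentage points ± 2.05 (SD, n = 3 replicate numbers, each the mean of its G1 and G2/M library) and did so in 6 of 6 libraries, by between 5.40 and 11.2 points. Alpha exceeded gamma by 16.8 points ± 2.65 and beta exceeded gamma by 9.34 points ± 0.982 (SD, n = 3), each in 6 of 6 libraries. These differences were larger than their spread between replicates. The two-sided exact sign-flip test over 3 replicate numbers gave p = 0.25 for each pair, adjusted p = 0.25 over the 3 pairs, which is the smallest value that 3 replicates allow. Counted over 6 libraries, of which pairs share a replicate, the same exact test gave its smallest value, p = 0.03125.

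The other 12501 windows of chromosome 18 averaged 65.2% ± 3.90 (SD, n = 6), with 61.5% in the lowest library and 70.5% in the highest. The difference from them within a library was -14.4 points ± 2.48 in alpha, -21.9 points ± 0.822 in beta and -31.2 points ± 1.64 in gamma (SD, n = 3 replicate numbers), with the cluster lower in 6 of 6 libraries each time. The exact sign-flip test over 3 replicate numbers again stood at its floor of p = 0.25 for each. The surroundings were intermediate, since the 200 windows in 500 kb on either side averaged 54.4% ± 3.06 and the 8 windows between the clusters 59.1% ± 2.64 (SD, n = 6). Against the windows in 500 kb the differences were smaller, at -3.65 points in alpha, -11.1 points in beta and -20.4 points in gamma, and alpha lay above them in G1 replicate 1, at 54.2% against 53.1%.

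**Figure D1:**
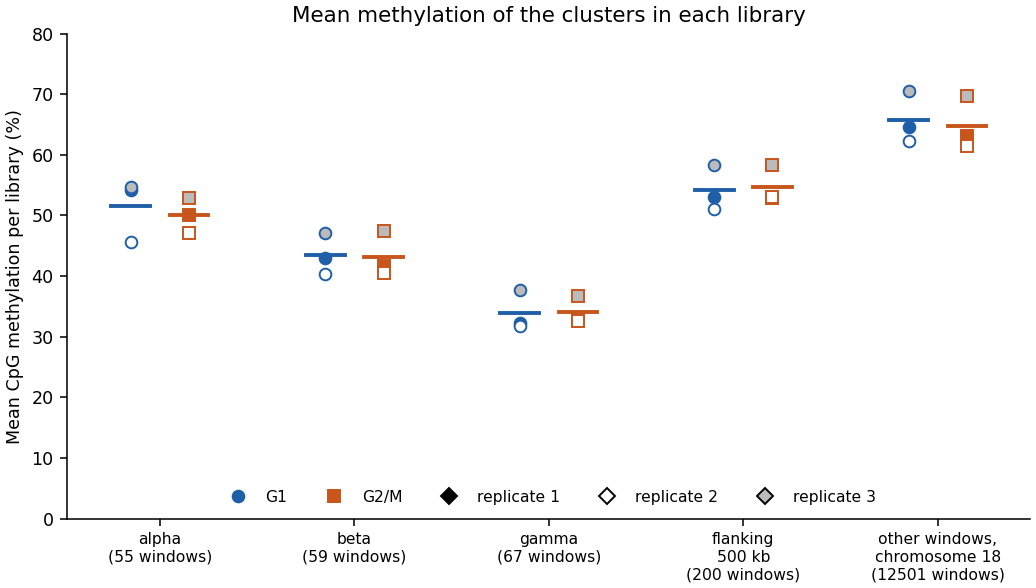
Mean CpG methylation per library (y axis, %) of the alpha, beta and gamma cluster windows, of the windows in 500 kb on either side and of the other windows of chromosome 18. Circles are G1 and squares G2/M libraries, filled by replicate number, and bars are the means of 3 libraries. The gamma points lie between 31.7% and 37.7%, below all points of the other sets, and G1 and G2/M points overlap in every set.

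The lower means came with more windows of low methylation than in the whole table in gamma and alpha, but not in beta. Under 20% methylation, as the mean of 6 libraries, were 17 of 67 gamma windows (25.4%), 5 of 55 alpha windows (9.09%) and 0 of 59 beta windows, whose lowest stood at 21.4%, against 3.50% of all 359192 windows. Over 60% were 23 alpha windows (41.8%), 8 beta windows (13.6%) and 9 gamma windows (13.4%), against 75.4% of all windows. Of the 200 windows in 500 kb on either side, 18 were under 20% and 108 (54%) over 60%. The share of low windows in alpha was thus close to that of these surroundings, while that of gamma was higher and that of beta lower. The beta cluster thus had few windows at either end, and its middle 50% of windows lay between 33.5% and 53.4%. Those of alpha lay between 36.9% and 66.1%, and those of gamma between 19.9% and 50.0%.

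Steps between neighbouring windows were also larger in each cluster than along the whole chromosome, cluster windows included. The correlation between neighbours was far lower in gamma only. The median step from one window to the next was 5.73 points along chromosome 18, 10.6 points in alpha, 9.72 points in beta and 21.9 points in gamma. Across windows, the level of a window correlated with that of the next with r = 0.54 along chromosome 18 and r = 0.55 and 0.53 in alpha and beta, but with r = -0.08 in gamma. Windows in a row share libraries and are not independent, so these coefficients are descriptions. In gamma, windows of low and of high methylation followed each other closely, as the profile along the clusters shows.

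**Figure D2:**
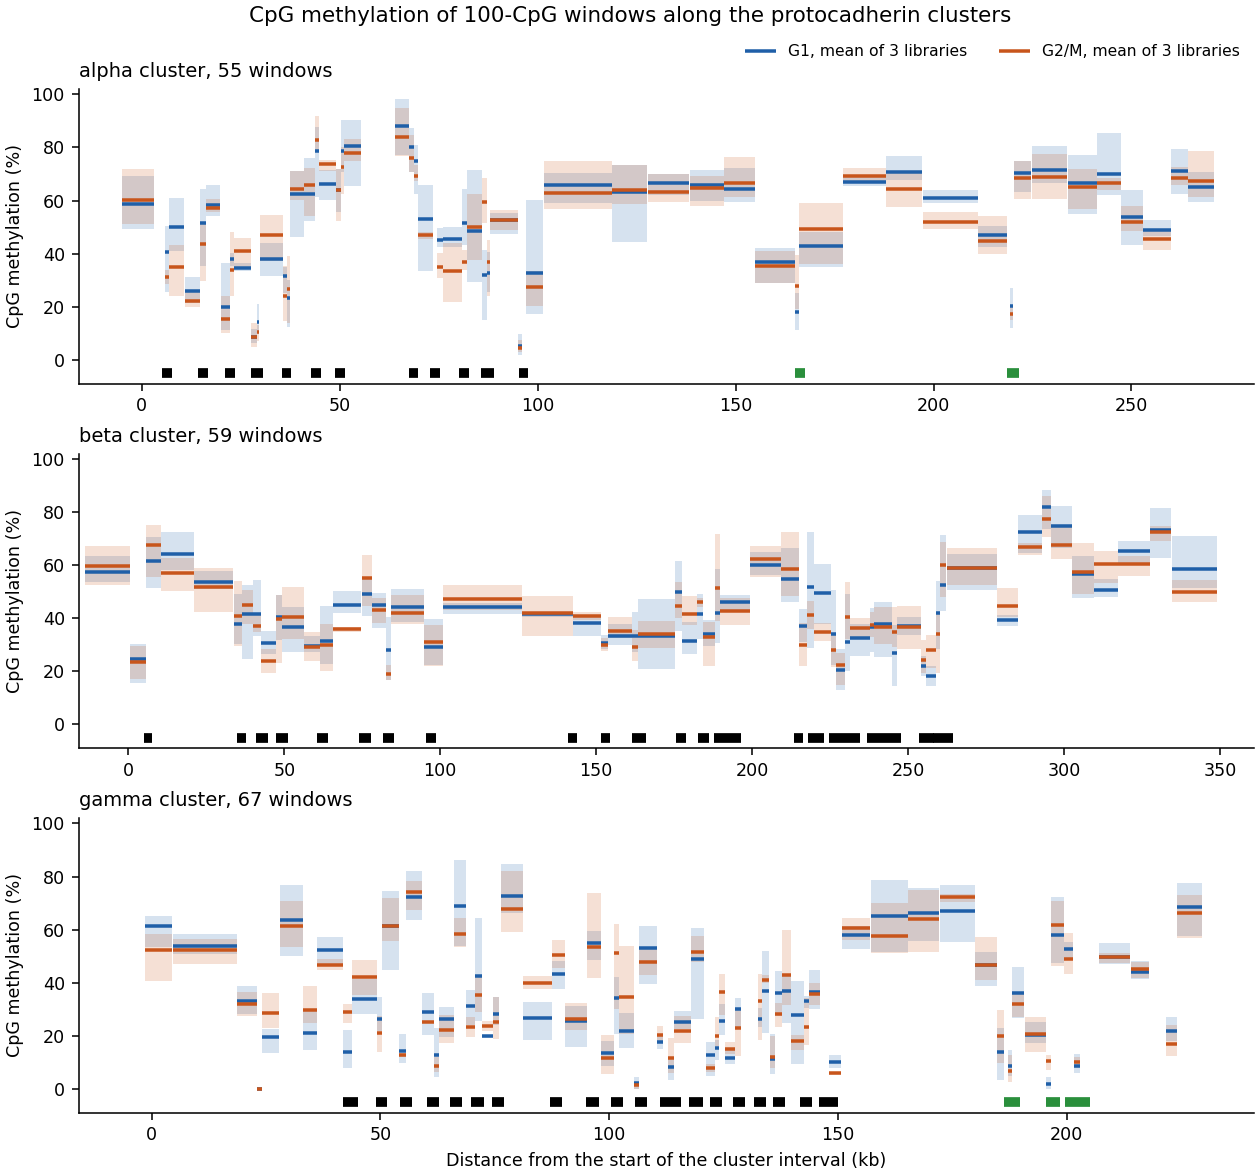
CpG methylation (y axis, %) of each window along the 3 clusters against the distance from the start of the cluster interval (x axis, kb). Lines are means of the 3 G1 and the 3 G2/M libraries and shaded boxes their ranges. Black bars mark first exons of alternate and beta genes and green bars those of C-type genes. Alpha has a stretch of high windows over Pcdha6 to Pcdha8, up to 86.1%, and a flat high stretch after Pcdha12 that ends before Pcdhac1. Beta stays mostly between 20% and 60% over its genes, and gamma moves between low and high windows over short distances.

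The windows that hold a gene start were less methylated than the rest of their cluster. Such a window can lie mostly before the gene or mostly over its first exon, so it is not a measure of the promoter alone. The difference was -10.7 points ± 1.77 in alpha (13 start windows), -10.3 points ± 0.321 in beta (22) and -16.8 points ± 3.68 in gamma (21; SD, n = 3 replicate numbers), with lower start windows in 6 of 6 libraries in each cluster. Start windows averaged 42.7% ± 4.90 in alpha, 36.9% ± 3.78 in beta and 22.5% ± 1.54 in gamma (SD, n = 6). The exact sign-flip test over 3 replicate numbers gave its smallest value, p = 0.25 and adjusted p = 0.25 over 3 clusters. The windows that held neither a first exon nor a constant exon averaged 61.4% ± 4.06 in alpha, 60.2% ± 2.99 in beta and 47.9% ± 3.89 in gamma (SD, n = 6). The windows over a first exon that held no start averaged 47.5% ± 3.52 in alpha, 39.2% ± 3.74 in beta and 35.2% ± 3.68 in gamma (SD, n = 6). Against these, start windows differed by -4.84 points ± 3.26 in alpha, -2.31 points ± 3.38 in beta and -12.7 points ± 3.99 in gamma (SD, n = 6), and were lower in 5, 5 and 6 of 6 libraries. In beta the difference was smaller than its SD over 6 libraries. By replicate number it was -1.81, -2.55 and -2.58 points, negative each time. These values were small beside the -10.3 points against the rest of the cluster. The contrast of beta starts with that rest thus rested mostly on the windows away from the genes. The median beta start window stood at 38.2%, against 37.8% for the window before it and 36.1% for the window after it.

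In gamma, 12 of 21 start windows were lower than both neighbouring windows, and 7 were so in every library, namely those of Pcdhga1, Pcdhga3, Pcdhga6, Pcdhga7, Pcdhgb4, Pcdhga8 and Pcdhga11. In alpha this held for 5 of 13 start windows, in every library for Pcdha2 and Pcdha12. In beta it held for 9 of 22, in every library for Pcdhb1 alone. Higher than both neighbours were 4 of 13 start windows in alpha, 6 of 22 in beta and 2 of 21 in gamma. Of the other windows of chromosome 18 with a neighbour on both sides, 30.7% were lower than both and 30.7% higher than both. The share of them that was lower than both in every library was not computed, so those counts have no background here.

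Windows differ in length, while most held a similar number of CpGs, with a median of 50 or 51 CpG dinucleotides of the reference sequence per window in each cluster. Of the 181 windows, 14 held more than 60, up to 222 in beta. A short window was thus mostly a CpG-dense one. Longer windows were more methylated across the windows of gamma (Spearman's rho = 0.64, 67 windows), of beta (0.43, 59 windows) and of alpha (0.32, 55 windows). Over all windows of the table rho was 0.0022. The 200 windows in 500 kb on either side had rho = 0.49, above beta and alpha, so this relation was not particular to those clusters. Gamma had the shortest windows, with a median of 2654 bp against 3977 bp in alpha, 5091 bp in beta and 5817 bp in the whole table. Among windows of 4 kb or shorter the order remained, with 43.9% ± 3.84 in alpha (28 windows), 38.6% ± 4.67 in beta (24 windows) and 28.0% ± 2.12 in gamma (49 windows), against 56.2% ± 3.48 in the other short windows of chromosome 18 (SD, n = 6). Among windows longer than 4 kb, alpha averaged 57.9%, gamma 50.4% and beta 46.6%, so that gamma lay above beta there. How far base composition sets the differences between clusters was not tested further.

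**Figure D3:**
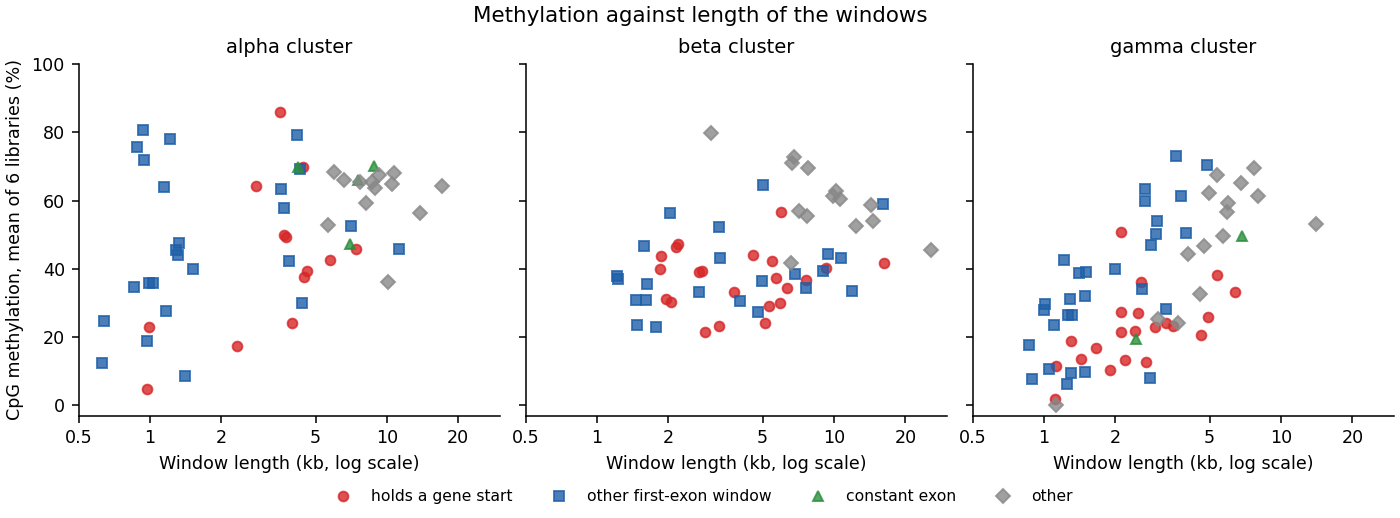
Methylation of each window (y axis, mean of 6 libraries, %) against its length (x axis, kb, log scale) in the 3 clusters. Symbols separate windows that hold a gene start, other windows over a first exon, windows over constant exons and the rest. In gamma longer windows tend to be higher, with scatter, and the highest window, at 73.1%, is 3590 bp long. In alpha, short first-exon windows range from 8.55% to 80.7%.

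The alternate alpha genes differed more among themselves than the genes of any other class. The level of each first exon was taken as the mean of its windows weighted by their overlap with the exon. The windows covered from 50.3% (Pcdha9) to 100% of a first exon, with medians of 98.9% in alpha, 99.9% in beta and 99.0% in gamma. For the 12 alternate alpha genes it ran from 15.1% at Pcdha12 to 75.4% at Pcdha8, with a median of 44.4%. Pcdha6, Pcdha7 and Pcdha8 stood apart from the others. The first exon of Pcdha8 was at 84.8%, 72.5% and 75.9% in G1 against 79.7%, 69.1% and 70.1% in G2/M. That of Pcdha7 was at 70.6%, 69.7% and 71.8% in G1 against 69.2%, 72.9% and 65.2% in G2/M. That of Pcdha6 was at 69.8%, 67.1% and 70.6% in G1 against 80.2%, 66.3% and 74.8% in G2/M. The lowest of these 18 values was above the highest library of each of the other 9 alternate alpha first exons, whose means ran from 15.1% to 45.2%. These 3 genes were singled out after their values were seen, so the contrast is a description.

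The start window of Pcdha8 (chr18:36989048-36992575) was the most methylated window of all 3 clusters, at 98.3%, 77.2% and 89.1% in G1 against 94.9%, 76.9% and 80.2% in G2/M. The start window of Pcdha12 (chr18:37020073-37021040), the last alternate alpha gene, was the least methylated of its cluster, at 1.90%, 3.33% and 9.84% in G1 against 3.39%, 2.94% and 7.55% in G2/M. The highest library of Pcdha12 thus lay far below the lowest of Pcdha8, and neither separated the phases. The 2 windows cover unlike sequence. The start of Pcdha8 (chr18:36992371) lies near the end of its window, which holds mostly sequence before the gene. That of Pcdha12 (chr18:37020149) lies near the beginning of its window, which holds mostly the first exon. Low windows also lay over the first exon of Pcdha4, at 8.55% ± 3.48 (chr18:36952667-36954067), and at the start of Pcdha3, at 17.5% ± 10.6 (SD, n = 6).

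Between Pcdha12 and Pcdhac1 the alpha cluster had 5 consecutive windows between 63.6% and 65.4%, before a window at 36.0% ± 5.84 in front of Pcdhac1. The constant exons lay in 4 windows that averaged 63.3% ± 5.81 (SD, n = 6). Their first window (chr18:37149984-37158837) had 66.9%, 66.7% and 80.7% in G1 against 68.1%, 60.6% and 77.5% in G2/M. The next (chr18:37158854-37166399) had 67.7%, 54.9% and 77.3% in G1 against 57.0%, 67.1% and 71.7% in G2/M. The last exon was divided between a window at 47.2% ± 3.72, which holds mostly the intron before it, and one at 69.8% ± 6.02 (SD, n = 6). In all 4 windows the libraries of G1 and G2/M overlapped. Of the gamma constant exons the first lay in no window, and the second, of 89 bp, lay in a window at 49.7% ± 3.10 (chr18:37827070-37833928). The last exon shared 162 of its 1971 bp with a window at 19.3% ± 5.63 (chr18:37841712-37844151; SD, n = 6), which also overlaps Diaph1, so that value is not the level of the exon.

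The beta genes were more even. Their 22 first exons ran from 24.3% at Pcdhb21 to 55.9% at Pcdhb1, the first gene of the array, with a median of 37.6%. The first exon of Pcdhb1 was at 61.6%, 43.8% and 55.3% in G1 against 62.8%, 49.9% and 62.0% in G2/M. That of Pcdhb21 was at 21.3%, 20.7% and 21.7% in G1 against 33.3%, 21.1% and 27.6% in G2/M. All libraries of Pcdhb1 exceeded all those of Pcdhb21, but most beta genes between them overlapped their neighbours in this order. Among start windows the extremes were Pcdhb18, at 28.3%, 12.9% and 20.0% in G1 against 25.3%, 14.8% and 27.0% in G2/M, and Pcdhb15, at 66.3%, 46.0% and 51.9% in G1 against 48.3%, 54.4% and 72.4% in G2/M. The highest window of the cluster lay after the last gene, in the tail beyond Pcdhb22 (chr18:37552958-37555992), at 84.2%, 73.7% and 88.2% in G1 against 75.5%, 70.7% and 86.1% in G2/M.

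In the gamma cluster, type B first exons were less methylated than type A. The 7 type B exons averaged 26.0% ± 2.45 and the 12 type A exons 37.3% ± 3.63 (SD, n = 6). Type A exceeded type B in 6 of 6 libraries, by 7.66 to 13.2 points, a contrast chosen after the values were seen and not tested. Type A ran from 12.5% at Pcdhga12 to 51.6% at Pcdhga4 and type B from 16.9% at Pcdhgb5 to 33.7% at Pcdhgb7. The start windows of the 2 types were closer, at 22.1% ± 2.21 for A and 19.9% ± 3.44 for B (SD, n = 6). Pcdhga8 and Pcdhga3 show how far start and exon could differ within a gene. The start window of Pcdhga8 (chr18:37725461-37726570) was the lowest protocadherin window, at 4.35%, 1.96% and 0% in G1 against 0%, 2.21% and 2.31% in G2/M. The window over the rest of its first exon, which also reaches past the exon, averaged 50.5% ± 8.78 (SD, n = 6), so the level differed widely within the gene. The highest gamma window (chr18:37675570-37679159), over the end of the first exon of Pcdhga3 and the sequence after it, had 70.9%, 63.5% and 82.0% in G1 against 76.7%, 78.4% and 67.2% in G2/M. The start window of Pcdhga3 just before it averaged 13.5% ± 3.82. The single lowest window of the gamma interval was no protocadherin window but one within Taf7, which encodes a subunit of the general transcription factor TFIID, and it is listed at 0% in all 6 libraries.

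**Figure D4:**
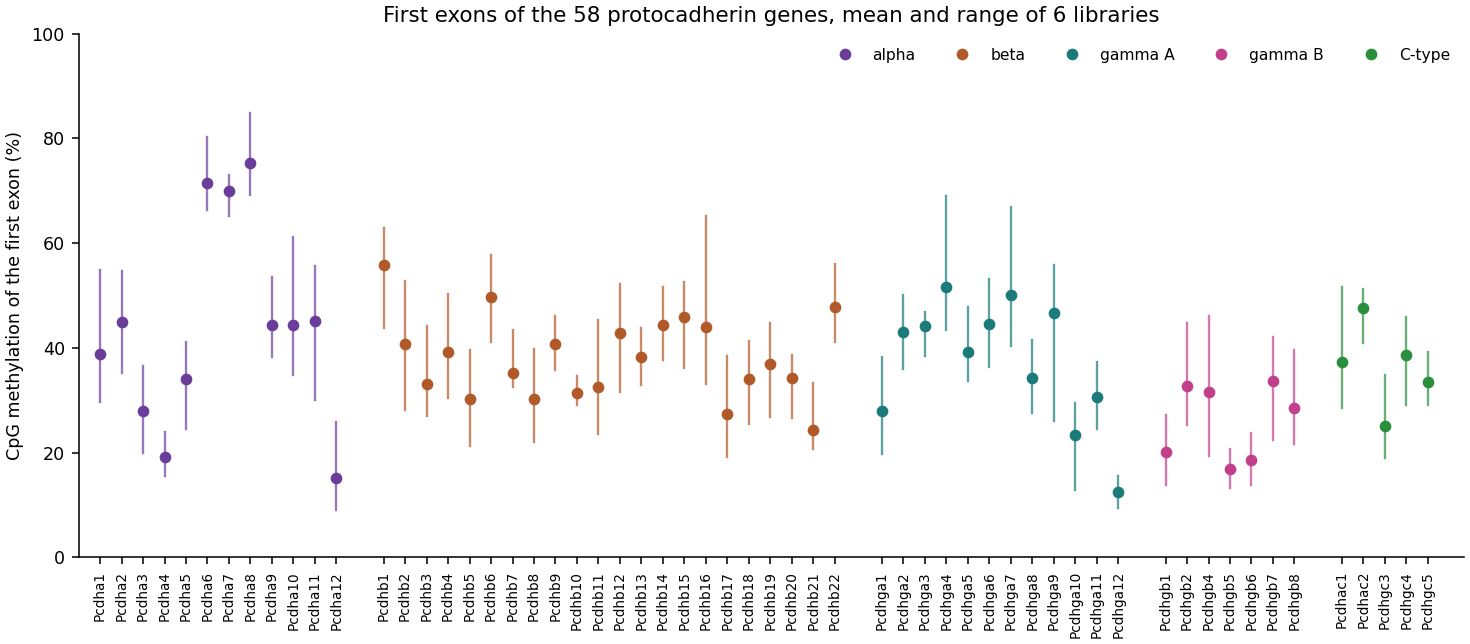
CpG methylation of the first exon of each of the 58 protocadherin genes (y axis, %), in genome order within each class. Points are means and lines the ranges of 6 libraries. The means of Pcdha6, Pcdha7 and Pcdha8 lie near 70% or above. Those of beta genes run from 24.3% to 55.9%, and those of type B gamma genes do not exceed 33.7%.

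The C-type genes were not set apart from the alternate genes by their start windows. The 5 C-type start windows averaged 31.4% ± 3.44 (SD, n = 6), 1.45 points above the alternate start windows of alpha and gamma, with a higher C-type mean in 4 of 6 libraries (exact sign-flip test over 3 replicate numbers, two-sided, p = 0.25, the smallest possible). The direction turned with the cluster, with a difference of -9.67 points in alpha alone and 8.08 points in gamma alone, so that the pooled value averages opposite differences. The pooled difference turned also with whole first exons in place of start windows, at -1.03 points, and was 0.49 points with medians. The start window of Pcdhac1 had 25%, 18.1% and 11.3% in G1 against 25%, 19.0% and 39.6% in G2/M. The start window of Pcdhac2 had 47.8%, 42.6% and 50.5% in G1 against 40.0%, 40.6% and 54.2% in G2/M. Both overlapped between the phases, and Pcdhac2 exceeded Pcdhac1 in every library.

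The gamma C-type starts showed a wide range. The start window of Pcdhgc3 had 23.1%, 3.33% and 15.6% in G1 against 29.8%, 9.84% and 19.9% in G2/M, with replicate 2 lowest in both phases. That of Pcdhgc4 had 17.4%, 25.2% and 18.3% in G1 against 21.5%, 13.7% and 27.2% in G2/M. That of Pcdhgc5, the highest start window of the gamma cluster (chr18:37819359-37821469), had 54.1%, 48.7% and 55.2% in G1 against 44.3%, 58.8% and 43.3% in G2/M. The phases overlapped at all 3 starts. Downstream, each of these genes had a short CpG-dense window inside the annotated first exon that was nearly unmethylated, at 7.65% ± 4.97 in Pcdhgc3, 6.22% ± 5.45 in Pcdhgc4 and 9.42% ± 2.86 in Pcdhgc5 (SD, n = 6). The annotated exon used for Pcdhgc5 ends at chr18:37825079, as does the first constant exon, so it reaches past the variable exon. Whether the low window of Pcdhgc5 lies in the variable exon was not checked. Pcdhac2 had a short low window in its first exon at 18.9% ± 5.31. Counting the lowest window touched by the start or first exon of each gene, 4 of 5 C-type genes, 5 of 12 gamma A, 4 of 7 gamma B, 3 of 12 alternate alpha and 0 of 22 beta genes had a window under 20%. A gene had between 1 and 4 such windows, and neighbouring genes can share one, so these counts depend on the windows. Of all single windows of the table, 3.50% were under 20%.

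The study's question for these libraries was whether methylation differs between G1 and G2/M, that is, whether it is fully restored before mitosis. In each cluster taken whole, the difference between the phase means was smaller than the SD of the libraries of either phase. Mean methylation was 51.5% ± 5.08 in G1 and 50.0% ± 2.87 in G2/M in alpha, 43.5% ± 3.46 and 43.2% ± 3.64 in beta, and 33.9% ± 3.30 and 34.1% ± 2.21 in gamma (SD, n = 3 each). By exact permutation (two-sided, 3 libraries against 3), p was 0.70 for alpha, 1.00 for beta and 0.90 for gamma, where 0.10 is the smallest possible. The matched differences, G1 minus G2/M in replicates 1, 2 and 3, were 4.08, -1.44 and 1.87 points in alpha, 1.32, -0.28 and -0.22 points in beta, and -0.78, -0.97 and 1.01 points in gamma. Outside the clusters they were 1.28, 0.64 and 0.70 points. In none of the clusters did the 3 replicates go the same way, whereas the other windows were higher in G1 in 3 of 3. Relative to all other windows, the phase difference was 0.63 points ± 2.49 in alpha, -0.60 points ± 0.55 in beta and -1.12 points ± 1.26 in gamma (SD, n = 3), which the exact sign-flip test did not separate from 0 (p = 0.75, 0.50 and 0.50, and adjusted p = 0.75 for each). The beta value slightly exceeded its SD, and relative to the other windows of chromosome 18 alone beta was lower in G1 in 3 of 3 matched pairs, by -0.71 points ± 0.52 (exact p = 0.25, the smallest possible). With medians over windows in place of means, the gamma difference between the phases was -2.71 points in place of -0.25, and -3.79 points relative to all other windows (exact p = 0.25, again the smallest possible).

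Single windows gave no call either. With limma, an adjusted p under 0.05 was reached by 0 of 181 cluster windows, against 8 of 359192 in the whole table (0.00223%), and each adjusted p in the clusters was 1. An unadjusted p under 0.05 was found in 4 of 181 windows (1 in alpha, 0 in beta and 3 in gamma), near the 2.11% of all windows. With the replicate number as a block there were 0 by adjusted p and 8 (4.42%) by unadjusted p, near the 4.83% of all windows in that fit. The G1 libraries all lay above the G2/M libraries in 5 cluster windows (2.76%), against 4.12% of all windows, and all below in 6 (3.31%), against 1.98%. G1 was higher in 3 of 3 matched pairs in 21 windows (11.6%), against 16.3% of all windows, and lower in 24 (13.3%), against 9.74%. Of the lower ones, 13 lay in gamma (19.4% of its windows), 7 in beta (11.9%) and 4 in alpha (7.27%). The higher ones were 10 in gamma (14.9%), 6 in beta (10.2%) and 5 in alpha (9.09%). All G1 libraries lay below in 5 gamma windows (7.46%), 1 alpha window (1.82%) and 0 beta windows. They all lay above in 3 alpha windows (5.45%), 1 beta window (1.69%) and 1 gamma window (1.49%). These shares by cluster were not tested. The median size of the phase difference, 3.89 points per window, was close to the 3.56 points of all windows, and smaller than the median SD of 7.32 points between G1 replicates.

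**Figure D5:**
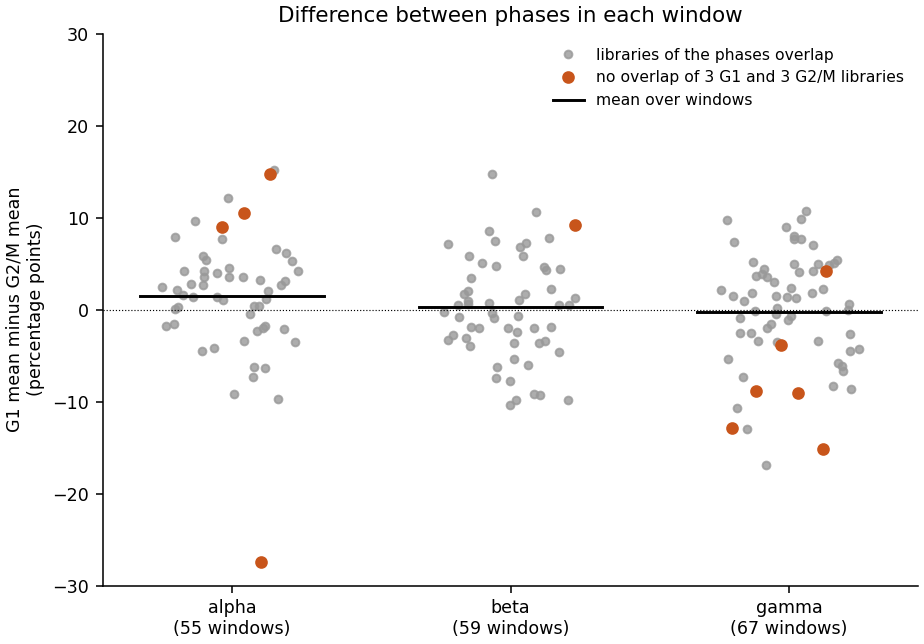
Difference between the mean of 3 G1 and of 3 G2/M libraries (y axis, percentage points) for each window of the 3 clusters. Coloured points mark windows in which the libraries of the phases do not overlap, grey points the others, and black lines the mean over windows, which lies at 1.5 in alpha, 0.27 in beta and -0.25 in gamma. Horizontal scatter is only for visibility.

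The largest phase difference in the clusters lay in the first exon of Pcdha11 (chr18:37010845-37012137), at 41.5%, 15.1% and 39.2% in G1 against 68.5%, 51.4% and 58.1% in G2/M. All 3 G1 libraries were below all G2/M libraries, with a mean difference of -27.4 points (limma unadjusted p = 0.0135, adjusted p = 1). In the adjoining alternate gene, a window in the first exon of Pcdha10 (chr18:37005790-37007098) went the other way, at 47.2%, 43.1% and 64.3% in G1 against 41.2%, 33.8% and 35.4% in G2/M, a mean of 14.7 points higher in G1 without overlap (limma unadjusted p = 0.0677, adjusted p = 1). Taken as whole first exons, both genes overlapped between the phases.

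In the gamma cluster, the start window of Pcdhga1 (chr18:37661695-37663797) had 22.1%, 11.9% and 7.95% in G1 against 24.6%, 31.9% and 30.9% in G2/M. The mean difference was -15.2 points, without overlap (limma unadjusted p = 0.0116, adjusted p = 1). Of the 58 first exons, 1 was lower in every G1 library than in every G2/M library and 3 were higher. The lower one was that of Pcdhga1, the first gene of the array, and it overlaps this start window. The higher ones were those of Pcdha9, Pcdhb7 and Pcdhga12. Windows covered only 50.3% of the exon of Pcdha9 and 58.5% of that of Pcdhga12. Among all single windows, 1.98% were lower without overlap and 4.12% higher, and no such share was computed for first exons. The smallest limma p of the clusters belonged to the low window in the first exon of Pcdhgc4 (chr18:37815427-37816677), with 0.794%, 4.55% and 0% in G1 against 7.14%, 12.7% and 12.1% in G2/M (unadjusted p = 0.00153, adjusted p = 1). Of the 4 windows with an unadjusted limma p under 0.05, the remaining one lay in the first exon of Pcdhga12 (chr18:37767985-37770772) and is named here after its value was seen. It had 8.02%, 9.72% and 12.8% in G1 against 6.38%, 5.07% and 6.32% in G2/M (limma unadjusted p = 0.0222, adjusted p = 1). Both of these windows had low levels, where a few calls move the log2 ratio. The largest gamma rise with 3 of 3 pairs was in the first exon of Pcdhga4 (chr18:37686001-37688654), at 66.7%, 53.8% and 86.4% in G1 against 56.8%, 53.4% and 64.4% in G2/M, with overlap.

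In the beta cluster the largest difference with 3 of 3 pairs was at the start of Pcdhb17 (chr18:37479935-37485432), at 50.8%, 38.0% and 60.2% in G1 against 38.3%, 31.3% and 35.0% in G2/M. G1 was 14.8 points higher on average, and 1 G1 library fell just below the highest G2/M library (limma unadjusted p = 0.065, adjusted p = 1). The largest fall was in the first exon of Pcdhb12 (chr18:37437398-37442367), with 28.8%, 26.5% and 38.7% in G1 against 37.4%, 39.4% and 48.2% in G2/M, again with overlap. No beta window had an unadjusted limma p under 0.05 without the block. With the replicate number as a block there were 2, named after their values were seen, the start of Pcdhb17 (limma unadjusted p = 0.0479) and the start of Pcdhb22 (chr18:37515770-37519028, limma unadjusted p = 0.0476). The start of Pcdhb22 had 18.8%, 14.4% and 21.8% in G1 against 33.7%, 21.2% and 29.5% in G2/M, with overlap.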

How the data were processed

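EM-seq libraries were made from 125 ng DNA of each sorted population and sequenced as 75 bp paired-end reads. The authors trimmed reads (Trim Galore 0.6.4), aligned them to GRCm38/mm10 with Bismark 0.22.1 and bowtie2, removed duplicates, reads with mapping quality under 20 and reads in outlier regions, and deposited the percent CpG methylation of 100-CpG windows in which at least 1 in 5 CpGs was observed in all datasets. No normalization between libraries is given in the sources used here.

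Windows were assigned to the clusters by any overlap, and genes, first exons and constant exons were taken from GENCODE vM21. The first exon was the longest annotated exon near the gene start, which for Pcdhgc5 also takes in the first constant exon. One of 2 genes that GENCODE names Pcdha11 was named Pcdha10 after RefSeq. The classes of window are those that hold an annotated gene start, other windows over a first exon, windows over an exon shared by all genes of the cluster, and the rest. Means over windows were computed per library, and the library was the unit of replication. Libraries of equal number were taken as pairs across the phases, since the study describes its replicates as matched. Over all windows, deviations from the group means correlated at 0.0274, 0.0310 and 0.0549 for equal numbers and from -0.0299 to -0.00144 for unequal ones. Limma 3.58.1 (R 4.3.3; lmFit, eBayes with a trend) was run on log2((percent + 1)/(100 - percent + 1)) of all 359192 windows with Benjamini-Hochberg adjustment and a threshold of 0.05. It was also run on simulated data with independent normal noise, which cannot show how it performs on these libraries. Other statistics used Python 3.11.15, numpy 2.4.6, pandas 2.3.3 and scipy 1.17.1, and figures matplotlib 3.10.9.

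Windows described singly are, per cluster, those with the lowest and highest mean of any kind and among start windows, the constant exon and C-type start windows, the largest phase differences with 3 of 3 pairs of one sign, and the smallest limma p. The members, lists and tests were chosen with earlier results of these data known. The alternatives of window length, start windows only, first exons with or in place of start windows, and those of the phase difference relative to other windows were chosen after seeing the data. Conversion controls and the sequence of the clusters were not analysed here.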

Additional observations from a re-analysis of the deposited data

How the results depend on the processing

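The order of the clusters, their difference from chromosome 18 and the lower start windows kept their direction under all alternatives run, except that gamma lay above beta among windows longer than 4 kb. Sizes moved by over 1.5 times in some. The differences of alpha, beta and gamma from the windows in 500 kb were -3.65, -11.1 and -20.4 points. Alpha minus beta was 12.6 with medians, and beta minus gamma 4.67 weighted by length and 14.4 with start windows only. Beta start windows differed by -21.8 with the next window 3′ and by -22.1 with all first-exon windows, and alpha by -16.01 with the latter. Against the other first-exon windows, start windows differed by -4.84 in alpha and -2.31 in beta. Over 6 libraries in place of 3 replicate numbers, the exact sign-flip p became 0.03125 for the differences of 7.43, 16.8 and 9.34 points between clusters, of -14.4, -21.9 and -31.2 points from chromosome 18, and of -10.7, -10.3 and -16.8 points at start windows of alpha, beta and gamma.

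Signs of the small values changed. C-type minus alternate start windows, 1.45 points, was -9.67 in alpha alone, 8.08 in gamma alone, 0.49 with medians and -1.03 with first exons. G1 minus G2/M became -0.80 in beta and -0.62 over the 3 clusters with libraries centred on their median, and 0.0032 in gamma weighted by length. With medians it was 1.09 in beta and -2.71 in gamma, and relative to all other windows 1.04 in alpha, 0.011 in beta and -3.79 in gamma. Centred, it was 0.43 in alpha and -1.32 in gamma.

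Leaving out 1 library, G1 minus G2/M ran from -0.093 to 4.43 in alpha, -1.56 to 2.35 in beta, -2.14 to 1.02 in gamma and -1.33 to 2.27 over the 3 clusters. Leaving out 1 replicate number, it ran relative to all other windows from -0.46 to 1.99 in alpha, -0.92 to -0.44 in beta, -1.83 to -0.65 in gamma and -0.71 to 0.14 over the 3 clusters. C-type minus alternate ran from 1.11 to 1.93. Alpha minus beta ran from 6.26 to 8.16, alpha minus gamma from 15.4 to 18.1 and beta minus gamma from 8.97 to 9.90.

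By limma, 0 cluster windows had an adjusted p under 0.05 in every alternative. The 4 with an unadjusted p under 0.05 (2.21%, against 2.11% of all windows) became 7 on the percent scale (3.87% against 2.21%), 8 with centred libraries (4.42% against 4.90%), 8 with the replicate block (4.42% against 4.83%) and 4 to 14 without 1 library, with 14 without G1 replicate 2 (7.73% against 3.05%). With the replicate block, the cluster means gave the same differences, and 3 pairs could not pass the threshold. The cause of these changes was not tested. Without coverage, the depth that limits single windows is unknown.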
